A study of Mus musculus with 24 samples.

Results

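The enzymes that build and remove sialylated glycans, gangliosides and mucin-type O-glycans were followed in cerebella taken at 7 and at 79 weeks of age from males of the inbred strain C57BL/6J. They are the 60 genes whose symbols place them in 10 enzyme families, taken from 37991 gene identifiers counted in each library, and all 60 were found. Messenger RNA from cerebellum was sequenced in 2 libraries per age, and the labels name no treatment or genetic change in either group. The series holds 24 samples in all, and its 20 genomic samples were not analysed here. Whether both libraries of an age are from different mice is not stated, so that p-values rest on a spread that may be technical.

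Polypeptide GalNAc-transferases start mucin-type O-glycans by attaching N-acetylgalactosamine to serine or threonine, and core and branching enzymes then extend that sugar. Gangliosides are sialic acid-bearing glycolipids, abundant in neuronal membranes, which are made in the Golgi from lactosylceramide by sialyltransferases, the enzyme B4galnt1 and a galactosyltransferase. Sialyltransferases cap glycans with sialic acid and sialidases remove it. Polysialic acid on the adhesion molecule Ncam1 is best known from the developing brain.

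Gcnt1, Galnt13, Galnt15, Neu4 and St8sia1 are the genes the results below turn on, for O-glycan branching, O-glycan initiation in either direction, sialic acid removal and ganglioside synthesis. The 250 bases before their RefSeq start sites are therefore shown. Positions are in the build GRCm38.p6 and not in mm9, the build of the counts. Each sequence runs 5′ to 3′ on the gene's strand, and capitals mark motifs that were searched on both strands. These were the GC box, spelled GGGCGG, the CCAAT box, spelled as its name says, the core promoter element known as the TATA box, spelled TATAAA, and the cAMP response element, spelled TGACGTCA. None of them holds another. RefSeq lists 3 starts for Gcnt1, of which 2 are shown.
Gcnt1, start 1 (chr19:17372845-17373094, - strand): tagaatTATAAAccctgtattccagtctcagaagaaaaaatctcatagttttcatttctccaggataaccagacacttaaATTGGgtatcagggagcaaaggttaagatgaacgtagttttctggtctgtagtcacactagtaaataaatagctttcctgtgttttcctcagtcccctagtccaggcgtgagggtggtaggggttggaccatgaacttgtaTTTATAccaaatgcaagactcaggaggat
Gcnt1, start 2 (chr19:17356668-17356917, - strand): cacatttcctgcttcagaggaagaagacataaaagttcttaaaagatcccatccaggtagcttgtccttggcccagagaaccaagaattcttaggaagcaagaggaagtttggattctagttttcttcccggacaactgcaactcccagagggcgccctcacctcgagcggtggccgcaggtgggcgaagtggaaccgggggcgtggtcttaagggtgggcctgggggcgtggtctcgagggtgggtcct
Galnt13 (chr2:54436137-54436386, + strand): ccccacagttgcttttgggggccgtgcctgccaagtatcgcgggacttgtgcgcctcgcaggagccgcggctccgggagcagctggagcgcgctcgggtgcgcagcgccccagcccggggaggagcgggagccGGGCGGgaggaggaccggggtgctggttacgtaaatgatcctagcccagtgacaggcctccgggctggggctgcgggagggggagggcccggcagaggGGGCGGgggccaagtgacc
Galnt15 (chr14:32028853-32029102, + strand): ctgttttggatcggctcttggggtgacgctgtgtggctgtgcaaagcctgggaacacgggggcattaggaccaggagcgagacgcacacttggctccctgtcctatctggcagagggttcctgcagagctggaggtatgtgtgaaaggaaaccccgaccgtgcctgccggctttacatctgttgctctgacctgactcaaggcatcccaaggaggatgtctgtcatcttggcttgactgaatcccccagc
Neu4 (chr1:94020243-94020492, + strand): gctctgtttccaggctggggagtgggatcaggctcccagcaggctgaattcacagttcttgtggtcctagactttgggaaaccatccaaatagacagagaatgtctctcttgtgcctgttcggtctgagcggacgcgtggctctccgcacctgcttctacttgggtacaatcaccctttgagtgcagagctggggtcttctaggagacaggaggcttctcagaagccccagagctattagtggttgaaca
St8sia1 (chr6:142964453-142964702, - strand): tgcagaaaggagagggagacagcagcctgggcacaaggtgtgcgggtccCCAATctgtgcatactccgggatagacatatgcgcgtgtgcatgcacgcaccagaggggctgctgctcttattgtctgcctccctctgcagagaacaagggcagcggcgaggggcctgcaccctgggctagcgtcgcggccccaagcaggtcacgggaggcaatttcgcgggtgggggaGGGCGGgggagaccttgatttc

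Galnt13 held 2 GC boxes and 23 CpG dinucleotides in this window, and Galnt15, a member of the same family, held 0 of the 4 motifs and 8 CpG. Neu4 also held 0 of the 4 motifs and 5 CpG, while St8sia1 held 1 GC box, 1 CCAAT box and 14 CpG. The first Gcnt1 start had 2 TATA boxes, 1 CCAAT box and 2 CpG, and the second had 0 motifs and 10 CpG. Windows were listed for 44 of the 60 genes, with 59 starts. Their median was 13 CpG, against 15 over the 14351 windows of genes tested between ages and 6 over all 32851 windows. A GC box was in 49.2% of the members' windows, in 56.1% of those of tested genes and in 32.7% of all windows. A CCAAT box was in 32.2%, 34.6% and 33.8% of these sets, a TATA box in 3.39%, 6.5% and 12.4%, and a cAMP response element in 3.39%, 2.43% and 1.55%. The TATA box was found in 2 of the members' windows, a start of Gcnt1 and a start of Neu2. Both genes were called between ages. Of the 14 windows of called members 14.3% thus held it, beside 6.5% for tested genes and 12.4% for all windows. A match describes the letters only.

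The libraries held 16367656 to 22826993 gene counts, and 15292 genes passed the low-count filter. Levels are given as CPM, counts per 1000000 reads of the TMM-scaled library size, and are compared within a gene only because transcript lengths were not used. For a gene at 0 reads, levels of up to 0.187 CPM are allowed in the shallowest library (3 counts, counting error only). Cerebellar markers were present in each library, with Gabra6 of granule neurons at 591 to 888 CPM and Pcp2 of Purkinje cells at 351 to 386 CPM. Of the libraries, 79-week replicate 1 stood apart in its choroid plexus markers: 10 of 10 were found, their summed level was 159 to 174 CPM at 7 weeks, 168 CPM in 79-week replicate 2 and 6777 CPM in 79-week replicate 1, and Ttr was at 5061 CPM there against 0.19 to 2.16 CPM in the others. In the other libraries Enpp2 made up most of the choroid plexus sum, at 129 to 144 CPM. Folr1, Aqp1, Kcne2 and Sostdc1 held 0 to 2 counts there. Ependymal markers summed to 72.4 CPM in 79-week replicate 1 and to 20.7, 21.0 and 27.3 CPM in the other libraries. Of other marker lists, edgeR called 6 of 10 granule neuron, 5 of 10 Purkinje cell, 4 of 10 myelinating oligodendrocyte and 2 of 9 oligodendrocyte precursor markers lower at 79 weeks, and 5 of 9 microglial markers higher. Over all genes tested, 4.68% were called lower and 4.17% higher. DESeq2 and limma-voom called 9 and 8 granule neuron, 5 and 5 Purkinje cell, 3 and 4 myelinating, 3 and 2 precursor, and 6 and 4 microglial markers. Without regard to calls, 10 of 10 granule neuron markers lay lower in both old libraries, and of the microglial markers 8 lay higher and Fcrls lower (log2 fold change -0.78, edgeR adjusted p = 0.101). Of all genes tested, 28.7% lay lower and 29.1% higher in both old libraries. The granule neuron list summed to 7337 and 7251 CPM at 7 weeks and to 6082 and 5763 CPM at 79 weeks, and the part of any cell type in the enzymes' differences was not tested. Of endothelial markers edgeR called 0 of 10, as did DESeq2 and limma-voom, with 2 at an unadjusted p below 0.05. In bulk tissue, fewer cells of a type and less RNA per cell cannot be told apart.

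The ages were compared over all genes, asking how expression in the aged cerebellum differs from that in the young adult. Of the 60 enzymes 53 could be tested, and 10 were called at an adjusted p under 0.05 in edgeR's quasi-likelihood test, 8 lower and 2 higher at 79 weeks. That is 18.9% of those tested, beside 8.84% of all genes tested (4.68% lower and 4.17% higher). Neu2, one of the 8, entered the test only through the 7-week libraries in which it was high, so its call is a description. Among the 51 enzymes that passed the low-count filter in both ages 9 were called, 7 lower and 2 higher, or 17.6% beside 9.2% of the 14332 genes that did so. The genes that fell were Gcnt1, Neu2, Neu4, Galnt13, Galnt9, St8sia1, St8sia5 and St6galnac4, and those that rose were Galnt15 and B4galnt4. The ages did not overlap for 39 of the 53, or 73.6%, with 23 lower and 16 higher, beside 57.7% of all genes (28.7% lower and 29.1% higher). The median log2 fold change was -0.05 over the 53 enzymes and 0.01 over all genes tested. Scaling by library size alone turned the enzymes' median to 0.00 (all genes 0.06) and left the directions of the 10 called genes in place. It changed the split over all genes from 637 higher and 715 lower to 901 and 484, and among the enzymes from 2 higher and 8 lower to 2 and 6.

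**Figure D1:**
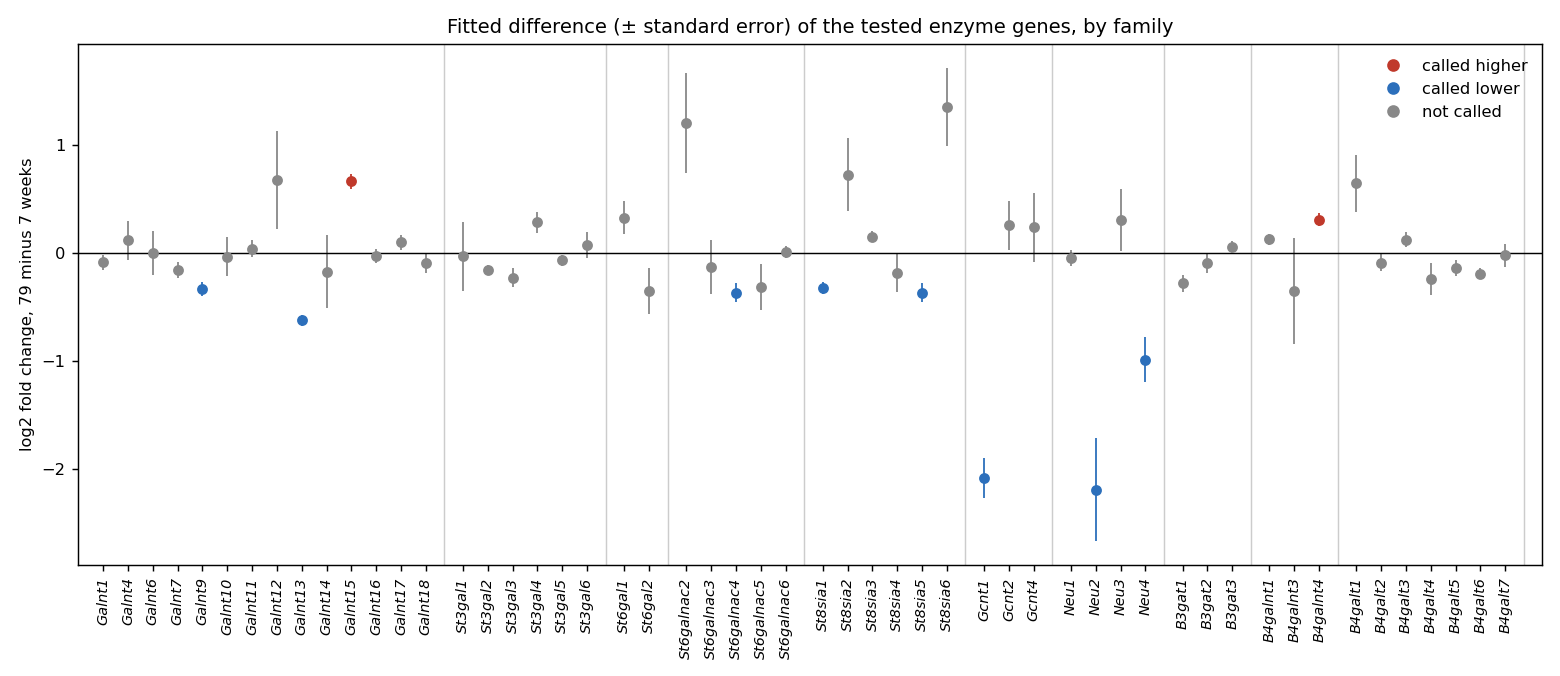
Fitted log2 fold change between 79 and 7 weeks (vertical axis) with its standard error for each of the 53 tested enzyme genes, grouped by family between the grey lines. The 8 genes called lower lie below 0 and include Neu2 at -2.19 and Gcnt1 at -2.09, while the 2 called higher are Galnt15 at 0.66 and B4galnt4 at 0.31.

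Each library was then left out in turn, which leaves 1 library of that age, assumed to vary like the pair of the other age, the only one to give the spread. Without 7-week replicate 1, edgeR called 0 of 16175 genes (DESeq2 called 235, and 2610 had an edgeR p below 0.05 before adjustment), so that 0 of the 10 enzymes stayed called, with adjusted p from 0.0879 for Galnt13 to 0.288 for Neu2. Without 7-week replicate 2 only 3 of the 10 did, Galnt13, Galnt15 and Gcnt1, and without 79-week replicate 1 the call of Galnt9 ended (adjusted p = 0.0543). All 10 stayed called without 79-week replicate 2. DESeq2 called Galnt13, Galnt15 and Gcnt1 with each library left out in turn. Galnt9, St6galnac4, St8sia1, Neu4 and B4galnt4 lost their DESeq2 call in each of these fits. St8sia5 was called by DESeq2 in some of them and Neu2 in none. All 10 genes kept their direction in each edgeR and DESeq2 fit run.

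**Figure D2:**
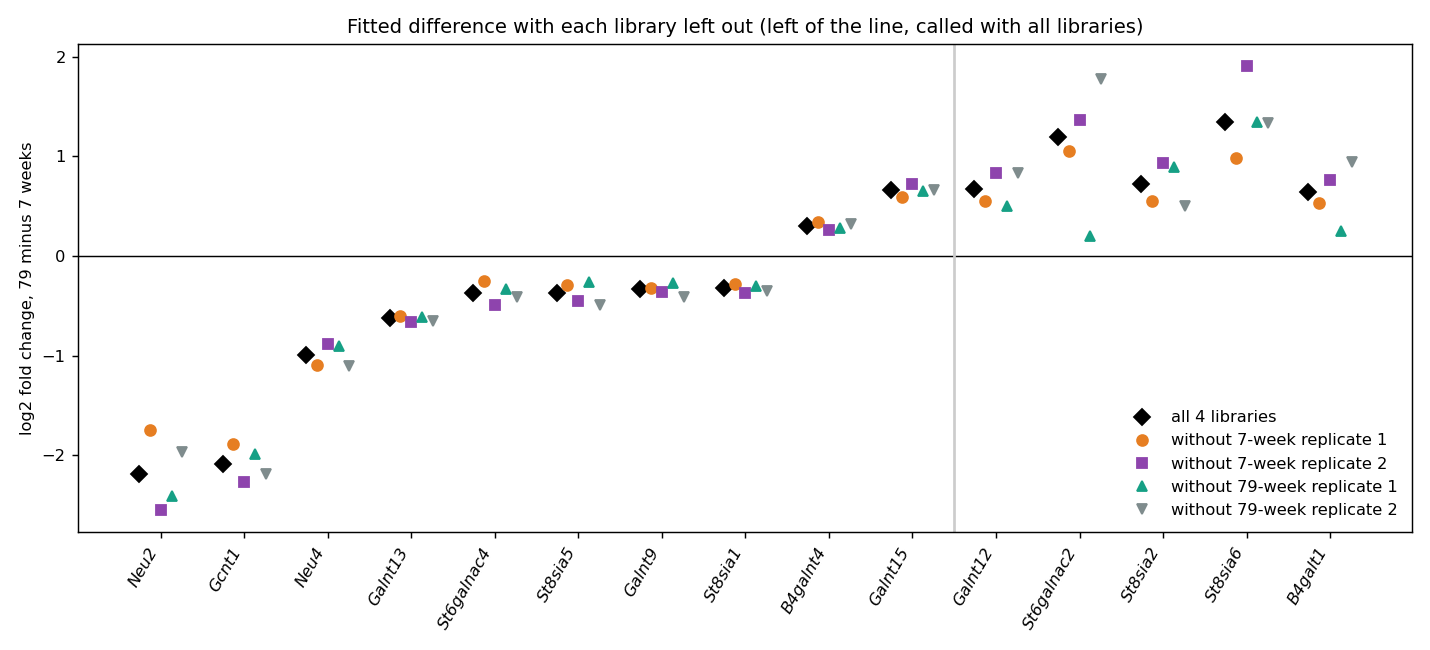
Fitted log2 fold change (vertical axis) for the 10 called genes, left of the grey line, and for 5 genes not called whose ages did not overlap, right of it. Symbols show the fit with all 4 libraries and the 4 fits with a library left out. Galnt13 stays between -0.66 and -0.60, and St6galnac2 ranges from 0.20 without 79-week replicate 1 to 1.78 without 79-week replicate 2.

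Mucin-type O-glycan initiation is shared among many GalNAc-transferases, of which 17 were found and 14 tested. Of these 2 fell, 1 rose and 11 were not called, with a median of -0.03. That is 21.4% called, beside 8.84% of all genes tested (4.68% lower and 4.17% higher). Galnt13 (ENSMUSG00000060988), an isoenzyme known from neurons, stood at 195 and 187 CPM at 7 weeks and at 122 and 125 CPM at 79 weeks. Both old libraries were below both young ones by a wide margin, and replicates differed little. It fell by 0.63 on the log2 scale (SE 0.05, edgeR adjusted p = 0.00318), a 1.54-fold fall.

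Galnt15 (ENSMUSG00000021903) went the other way within the family. Its level was 54.5 and 59.6 CPM at 7 weeks and 90.8 and 89.96 CPM at 79 weeks, so the old libraries nearly coincided above the young ones. The rise was 1.58-fold (log2 fold change 0.66, SE 0.07, edgeR adjusted p = 0.00417). Galnt9 (ENSMUSG00000033316), another isoenzyme known from brain, was at 94.4 and 91.3 CPM in the young and 70.0 and 76.9 CPM in the old libraries. It fell by 0.34 on the log2 scale (SE 0.07, edgeR adjusted p = 0.0263).

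**Figure D3:**
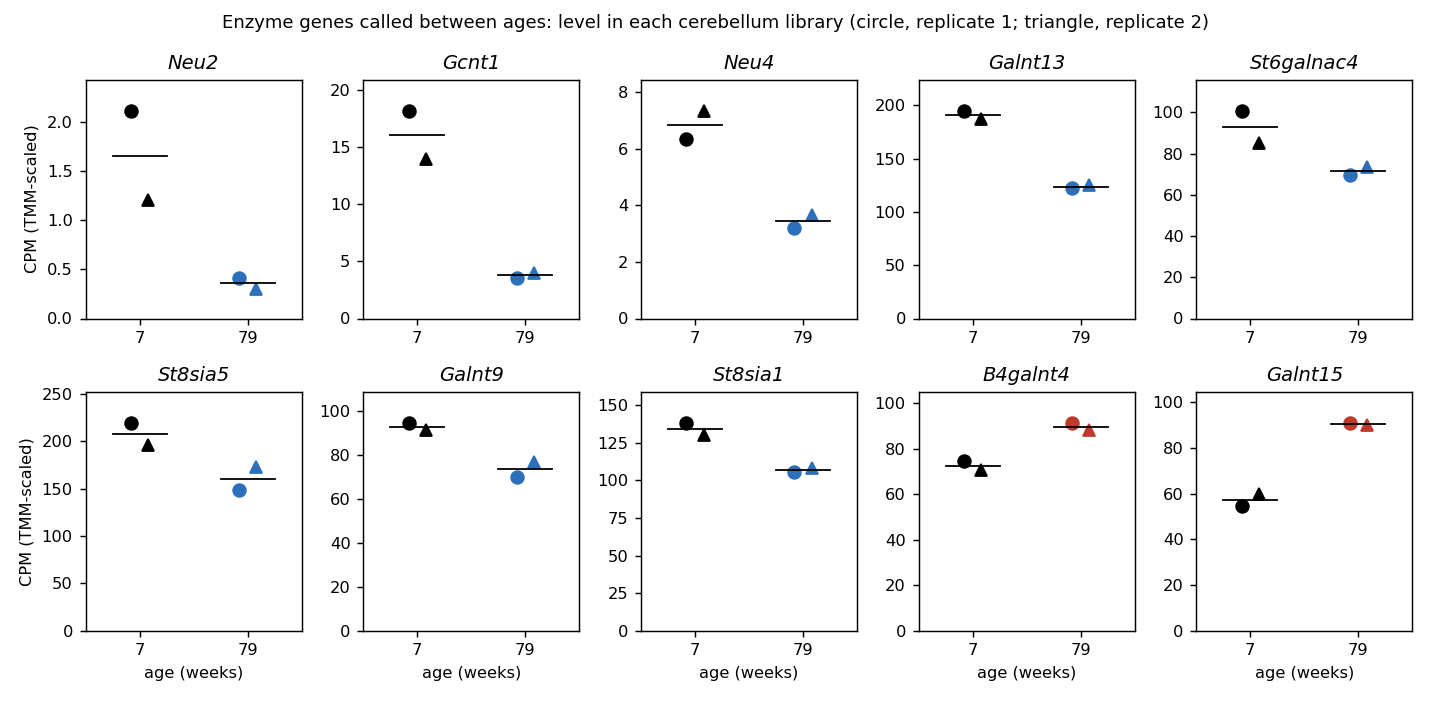
Level in CPM (vertical axes, from 0) of the 10 called genes at 7 and 79 weeks, with circles for replicate 1, triangles for replicate 2 and a bar at the mean of each age. The 7-week points are black. Galnt15 and B4galnt4 (79-week points red) are higher at 79 weeks and the other 8 (79-week points blue) are lower, and in no panel do the ages overlap.

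The other tested GalNAc-transferases moved little. Galnt1, Galnt4, Galnt6, Galnt7, Galnt10, Galnt11, Galnt14, Galnt16, Galnt17 and Galnt18 had log2 fold changes from -0.18 for Galnt14 to 0.12 for Galnt4. Galnt17 was at 74.9 and 74.4 CPM at 7 weeks and 75.5 and 84.1 CPM at 79 weeks. Galnt4 overlaps another coding gene, Poc1b, in RefSeq, as do B4galnt1 (Slc26a10), B3gat2 (Smap1), St3gal6 (Dcbld2), St6galnac5 (Pigk) and Gcnt7 (Rtf2), and since the strand setting of the counting is not stated their values are uncertain to that extent. Galnt12 held only 7 and 11 counts at 7 weeks and 17 and 16 at 79 weeks, and it was tested only because its 79-week counts passed the filter (log2 fold change 0.67, SE 0.45, edgeR adjusted p = 0.387). Galnt2, Galnt3 and Galnt5 were not tested, with 2 to 5, 5 to 9 and 0 to 5 counts per library. Whether the annotation behind the counts covers Galnt2 fully could not be checked. Its few counts therefore do not show that the gene is silent.

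Once GalNAc is attached, core 1 synthase adds galactose and GCNT enzymes add a branching N-acetylglucosamine. Gcnt1 (ENSMUSG00000038843), the core 2 branching enzyme, was at 18.2 and 14.0 CPM at 7 weeks and at 3.52 and 4.02 CPM at 79 weeks. Both young libraries were far above both old ones, with 292 and 290 counts against 68 and 93. The fall was 4.24-fold (log2 fold change -2.09, SE 0.19, edgeR adjusted p = 0.00328). Gcnt4, a second core 2 enzyme, and Gcnt2, which branches lactosamine chains, did not pass the test, at 1.31 to 1.86 and 3.55 to 5.01 CPM over the libraries (log2 fold changes 0.23 and 0.25). Gcnt3 and Gcnt7 had at most 1 count in a library. The family's median of 0.23 over 3 tested members therefore has the opposite sign to its only called gene.

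Core enzymes outside the families gave a background for these changes. Of 11 tested genes of the O-glycan core, its sulfotransferases and its sugar supply, 1 fell, 0 rose and 10 were not called (median -0.01). Over all genes tested 8.84% were called. The gene that fell was Chst2, a sulfotransferase that acts on N-acetylglucosamine, from 108 and 111 CPM to 81.1 and 85 CPM (log2 fold change -0.40, SE 0.06, edgeR adjusted p = 0.0111). C1galt1, the core 1 synthase, was at 4.61 and 6.23 CPM and then at 4.45 and 4.54 CPM (adjusted p = 0.482). The separate O-mannose pathway, which dystroglycan depends on, was read beside the same 8.84%. There 1 of 12 tested genes rose, 0 fell and 11 were not called (median -0.07). It was Pomgnt2, which extends the O-mannose core, with a 1.34-fold rise (SE 0.10 on the log2 scale, edgeR adjusted p = 0.0477), and DESeq2 and limma-voom called 0 of that list.

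O-glycans and glycolipids are sialylated by the ST6GALNAC enzymes, of which 1 of 5 tested fell, beside 4.68% of all genes tested. St6galnac4 (ENSMUSG00000079442) adds an α2,6-linked sialic acid to sialylated O-glycans. It stood at 101 and 84.9 CPM in the young libraries and 69.8 and 73.4 CPM in the old ones, and the young replicates lay further apart than the old. It fell by 0.37 on the log2 scale (SE 0.09, edgeR adjusted p = 0.0423). That call ended with library size scaling (adjusted p = 0.0626) and in limma-voom (adjusted p = 0.0531). St6galnac6 lies next to it in RefSeq and held 104 and 101 CPM at 7 weeks and 104 and 102 CPM at 79 weeks (log2 fold change 0.01, SE 0.05). St6galnac3 and St6galnac5, which are neighbours too, were at 2.59 to 3.23 and 4.02 to 5.48 CPM and were not called.

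St6galnac2, which sialylates the O-glycan GalNAc, was uneven. It held 3.49 and 4.34 CPM at 7 weeks, 13.6 CPM in 79-week replicate 1 and 4.54 CPM in 79-week replicate 2. Only the library with high choroid plexus markers stood apart, and the gene was not called (log2 fold change 1.20, SE 0.46, edgeR adjusted p = 0.149). Without that library the log2 fold change was 0.20 (adjusted p = 0.735), while the gene was called without 79-week replicate 2 (1.78, adjusted p = 1.73e-06, a fit in which the marker-rich library stands alone and the 7-week pair gives the spread) and with no low-count filter (adjusted p = 6.71e-06). The part of choroid plexus tissue in this value was not tested. St6galnac1 had 0 counts in each library, which allows up to 0.187 CPM in the shallowest.

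Gangliosides begin with lactosylceramide, which B4galt5 and B4galt6 make from the glucosylceramide of Ugcg. B4galt6 was at 196 and 186 CPM at 7 weeks and 166 and 168 CPM at 79 weeks, lower in both old libraries, and missed the threshold (log2 fold change -0.19, SE 0.05, edgeR adjusted p = 0.058). B4galt5 went from 76.1 and 67.7 to 65.3 and 65.2 CPM (adjusted p = 0.285), and Ugcg from 94.5 and 95.7 to 84.9 and 83.1 CPM (adjusted p = 0.087). St3gal5, which turns lactosylceramide into GM3, stood at 148 and 139 CPM and then at 136 CPM in both old libraries (log2 fold change -0.07, SE 0.05, adjusted p = 0.439). These first steps thus lay slightly lower at 79 weeks without a call.

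The sialyltransferases that open the b- and c-series fell. St8sia1 (ENSMUSG00000030283), the GD3 synthase, was at 138 and 130 CPM at 7 weeks and 106 and 109 CPM at 79 weeks. The groups were separate and each pair of replicates was close. It fell by 0.32 on the log2 scale (SE 0.06, edgeR adjusted p = 0.0168), a 1.25-fold fall. St8sia5 (ENSMUSG00000025425), the GT3 synthase, was at 219 and 196 CPM and then at 148 and 173 CPM. Its replicates differed more, and it fell by 0.37 (SE 0.08, edgeR adjusted p = 0.0397). With library size scaling St8sia5 was not called (adjusted p = 0.0551).

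B4galnt1, which makes GM2 and GD2 and so feeds the complex gangliosides, did not follow them. It held 95.6 and 93.1 CPM in the young and 103 and 102 CPM in the old libraries, higher in both, and was not called (log2 fold change 0.12, SE 0.05, edgeR adjusted p = 0.195). B3galt4, the next enzyme of the chain, was at 4.30 and 4.63 CPM and then at 4.14 and 2.98 CPM (adjusted p = 0.439). The terminal sialyltransferases St3gal2, at 218 and 220 CPM and then 194 and 198 CPM, and St3gal3, at 64.7 and 57.4 CPM and then 49.2 and 54.6 CPM, were lower in both old libraries and not called (adjusted p = 0.0778 and 0.145). The differences between St8sia1 and B4galnt1 were not tested against each other.

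**Figure D4:**
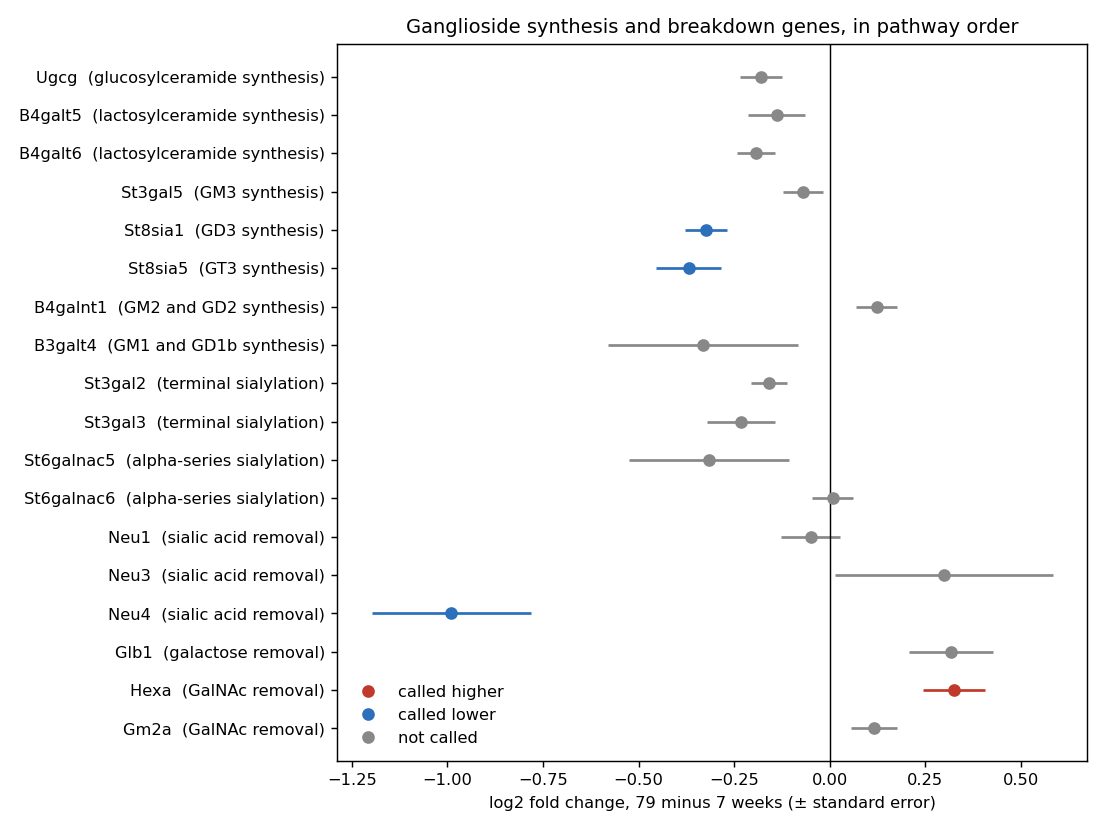
Log2 fold change between 79 and 7 weeks (horizontal axis) with its standard error for genes of ganglioside synthesis, from Ugcg at the top, and of breakdown, down to Gm2a. St8sia1 and St8sia5 are called lower at -0.32 and -0.37 and Neu4 at -0.99, while Hexa is called higher at 0.32.

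Among the remaining ST3GAL enzymes, which cap galactose with α2,3-linked sialic acid, St3gal4 was higher in both old libraries, at 24.9 and 27.5 CPM and then 30.1 and 33.7 CPM (log2 fold change 0.28, SE 0.10, edgeR adjusted p = 0.117). St3gal1 and St3gal6 overlapped between ages, at 2.62 to 5.07 and 19.2 to 23.8 CPM. In all, 0 of 6 in that family were called, as in DESeq2 and limma-voom, with 3 at an unadjusted p below 0.05. With no low-count filter St3gal3 and St3gal4 were called (adjusted p = 0.0344 and 0.0476), as were St3gal3 without 79-week replicate 2 (0.0394) and St3gal4 without 79-week replicate 1 (0.0477), while their adjusted p reached 0.527 and 0.433 in other fits. The ST6GAL enzymes, which put α2,6-linked sialic acid on N-glycans, diverged in sign without a call. St6gal1 was at 12.2 and 15.7 CPM and then 16.2 and 19.0 CPM, and St6gal2 at 4.55 and 4.68 CPM and then 3.47 and 3.76 CPM (adjusted p = 0.212 and 0.342). Of these 0 of 2 were called by edgeR, DESeq2 or limma-voom, and 0 had an unadjusted p under 0.05.

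Polysialic acid is made by St8sia2 and St8sia4. St8sia2, the form known from development, was near the lower limit of the data at 16 and 27 counts at 7 weeks and 32 and 50 at 79 weeks, or 0.997 and 1.30 against 1.66 and 2.16 CPM (log2 fold change 0.72, SE 0.34, edgeR adjusted p = 0.218). St8sia4 was at 6.29 and 6.47 CPM and then 5.54 and 5.66 CPM (adjusted p = 0.55). St8sia3, which makes short sialic acid chains, stood slightly higher at 79 weeks, at 119 and 123 CPM against 111 and 107 CPM (log2 fold change 0.15, SE 0.05, adjusted p = 0.124). St8sia6, which adds a second sialic acid to O-glycans, went from 0.685 and 1.30 to 2.59 CPM in each old library. It lay just outside the threshold (log2 fold change 1.35, SE 0.36, edgeR adjusted p = 0.0611) and was called with robust dispersion estimates (adjusted p = 0.0407), without 79-week replicate 2 (adjusted p = 0.0472) and with no low-count filter (adjusted p = 0.00372), while it reached 0.297 without 7-week replicate 1. All 6 members of this family had ages that did not overlap, 3 higher and 3 lower, beside 57.7% of all genes tested. The same held for the 2 ST6GAL and the 3 B3GAT genes, so it is not particular to this family.

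Carriers and partners of these chains were read beside them. Of 9 tested carriers of polysialic acid or of the HNK-1 epitope, with its sulfotransferase Chst10, 2 fell, 0 rose and 7 were not called by edgeR (median -0.24), beside 8.84% of all genes called. DESeq2 called 4 and limma-voom 2, and 5 had an unadjusted edgeR p below 0.05. Chl1, an L1-family adhesion molecule, fell from 339 and 333 to 247 and 231 CPM (log2 fold change -0.49, SE 0.05, edgeR adjusted p = 0.0052), and Nrcam, of the same family, fell by 0.26. Ncam1, the main carrier of polysialic acid, stood at 472 and 465 CPM and then 434 and 466 CPM (adjusted p = 0.583).

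The HNK-1 epitope is a sulfated glucuronic acid on adhesion molecules, started by B3gat1 and B3gat2. B3gat1 was lower in both old libraries, at 89.2 and 79.3 CPM and then 66.6 and 71.5 CPM, and was just outside the threshold (log2 fold change -0.28, SE 0.08, edgeR adjusted p = 0.0637). B3gat2 was at 23.5 and 24.2 CPM and then 23.4 and 21.4 CPM (adjusted p = 0.565), and Chst10 at 82.8 and 84.6 CPM and then 86.6 and 91.0 CPM (adjusted p = 0.399). B3gat3, which completes the linker of proteoglycans, stood at 102 and 99.9 CPM and then 103 and 106 CPM. Of the family 0 of 3 were called, as in DESeq2 and limma-voom, with 1 at an unadjusted p below 0.05. B3gat1 was called by edgeR with no low-count filter (adjusted p = 0.00154) and with robust dispersion (0.0371). It was also called in a crossed block, which paired libraries of unlike replicate number. That pairing was added after seeing the data, so its call there is a description. The other fits with all libraries did not call B3gat1, and edgeR's calls differed between the fits with a library left out.

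B4GALNT and B4GALT enzymes other than those of gangliosides act mainly on N-glycans. B4galnt4 (ENSMUSG00000055629), which makes the LacdiNAc group on N-glycans, was at 74.5 and 70.5 CPM at 7 weeks and 91.2 and 88.0 CPM at 79 weeks. The old libraries were close and both above the young, a 1.24-fold rise (log2 fold change 0.31, SE 0.06, edgeR adjusted p = 0.0273). Its partner B4galnt3 was sparse at 18 to 35 counts and overlapped between ages, and B4galnt2 had 0 counts in each library. Among the B4GALT enzymes 0 of 7 were called, as in DESeq2 and limma-voom, with 2 at an unadjusted p below 0.05. B4galt6 was called by edgeR with no low-count filter (adjusted p = 0.014), with robust dispersion (0.0409) and in the crossed block. That pairing was added after seeing the data, so its call there is a description. The other fits did not call B4galt6.

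B4galt1, which adds galactose to N-acetylglucosamine, was uneven in the same way as St6galnac2. It stood at 4.24 and 4.97 CPM at 7 weeks, at 8.96 CPM in 79-week replicate 1, where choroid plexus markers were high, and at 5.49 CPM in the other old library (log2 fold change 0.64, SE 0.27, edgeR adjusted p = 0.176). Without 79-week replicate 1 it was 0.25 (adjusted p = 0.624), without replicate 2 of that age 0.95 (adjusted p = 0.00528, again with the spread of the 7-week pair only), and the part of choroid plexus tissue was not tested. B4galt2, B4galt3, B4galt4 and B4galt7, the last an enzyme of the proteoglycan linker, had log2 fold changes from -0.24 for B4galt4 to 0.12 for B4galt3.

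Of the 3 sialidases that passed the low-count filter in both ages, Neu4 fell and Neu1 and Neu3 were not called. Among all genes that passed in both ages 9.2% were called. Neu2 passed the filter at 7 weeks only. Neu4 (ENSMUSG00000034000), a membrane-bound sialidase of brain, was at 6.36 and 7.34 CPM at 7 weeks and 3.21 and 3.67 CPM at 79 weeks. The young values were about double the old, on 102 and 152 counts against 62 and 85. It fell by 0.99 on the log2 scale (SE 0.21, edgeR adjusted p = 0.0305), a 1.99-fold fall. Beside it, 2 of 9 markers of oligodendrocyte precursors and premyelinating cells fell, Gpr17 from 29.8 and 32.8 to 8.80 and 7.99 CPM and Fyn, while Pdgfra overlapped between ages at 15.9 to 22.4 CPM. The summed level of that list was 456 and 470 CPM at 7 weeks and 366 and 419 CPM at 79 weeks, and its part in the fall of Neu4 was not tested.

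Neu2 (ENSMUSG00000079434), the cytosolic sialidase, had few reads. Its counts were 34 and 25 at 7 weeks and 8 and 7 at 79 weeks, or 2.12 and 1.21 against 0.414 and 0.302 CPM, and the young replicates lay further apart than the lower of them lay above the higher old one. It passed the low-count filter through its 7-week libraries only. Since that made a difference likely, its fitted log2 fold change of -2.19 (SE 0.48, edgeR adjusted p = 0.0337) is given as a description only, and DESeq2 gave it no adjusted p after its own filtering. Neu1, the lysosomal sialidase, stood at 66.7 and 59.5 CPM and then 62.1 and 59.7 CPM (adjusted p = 0.729). Neu3, the plasma membrane sialidase that acts on gangliosides, was at 4.74 and 3.67 CPM and then 6.37 and 3.98 CPM (adjusted p = 0.551), its highest value again in 79-week replicate 1.

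Lysosomal glycosidases, together with sialidases, take gangliosides apart. Of 11 tested genes of that breakdown 1 rose, 0 fell and 10 were not called (median 0.02), beside 8.84% of all genes called. Hexa, which takes part in removing N-acetylgalactosamine from GM2, stood at 33.7 and 35.4 CPM and then at 44.9 and 41.8 CPM. Its 1.25-fold rise lay just inside the threshold (SE 0.08 on the log2 scale, edgeR adjusted p = 0.0497), and DESeq2 and limma-voom called 0 of the list. The microglial markers of the same libraries summed to 101 and 109 CPM at 7 weeks and 169 and 214 CPM at 79 weeks, with 5 of 9 called higher, and their part in this rise was not tested. The β-galactosidase gene Glb1 was higher in both old libraries and not called (adjusted p = 0.115).

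Upstream of the transferases, of 10 tested genes that make, activate or carry sialic acid edgeR, DESeq2 and limma-voom each called 0, with 2 at an unadjusted edgeR p below 0.05 and a median of -0.02, the lowest p being that of Renbp, which binds renin and epimerizes N-acetylglucosamine, at 3.36 and 3.72 CPM and then 5.59 and 5.83 CPM (adjusted p = 0.0814). Casd1, which acetylates sialic acid, was at 89.9 and 93.6 CPM and then 84.7 and 80.7 CPM (adjusted p = 0.159), and Cmas, which activates sialic acid for transfer, stood at 40.9 and 42.3 CPM and then 41.6 and 38.1 CPM. Of 13 other genes of glycosphingolipid synthesis edgeR called 1 lower and 0 higher, and 12 were not called (median -0.18), beside 8.84% of all genes tested. DESeq2 called 3 and limma-voom 1, and 6 had an unadjusted edgeR p below 0.05. In both old libraries 9 of the 13 lay lower and 0 higher, beside 28.7% and 29.1% of all genes tested. The gene called by edgeR was Ugt8a, which makes galactosylceramide of myelin, from 70.5 and 63.3 to 32.0 and 43.6 CPM (log2 fold change -0.82, SE 0.14, edgeR adjusted p = 0.0162). The markers of myelinating oligodendrocytes summed to 6293 and 5923 CPM at 7 weeks and to 3790 and 5336 CPM at 79 weeks, lowest in 79-week replicate 1 as Ugt8a was, and their part was not tested.

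By family, the median log2 fold change of the sialidases was -0.52 with Neu2 and -0.05 over the 3 members that passed the filter in both ages. It was -0.13 for the ST6GALNAC enzymes, -0.09 for B3GAT and B4GALT, -0.05 for ST3GAL, -0.03 for GalNAc-transferases, -0.02 for ST8SIA, -0.01 for ST6GAL, 0.12 for B4GALNT and 0.23 for GCNT. With 2 to 14 tested members in a family, these medians are descriptions. With library size scaling the medians of ST3GAL, ST8SIA, GalNAc-transferases and ST6GAL turned to 0.00, 0.03, 0.02 and 0.04. No test of one family against another was made.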

How the data were processed

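Messenger RNA libraries from the cerebellum of 7-week and 79-week male mice, 2 per age, were analysed. Per the submitters' processing notes the authors used cutadapt, STAR and HTSeq with build mm9, and the deposited tables hold unnormalized counts of reads by Ensembl identifier. No version is stated, and for annotation release and strand setting the same holds: not given in the sources used here. The HTSeq summary lines were removed (0.696% to 0.766% of reads in each library were ambiguous between genes). Symbols were found for 32919 of 37991 identifiers.

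Counts were fitted in R 4.3.3 with edgeR 4.0.16: filterByExpr (minimum count 10, minimum total 15), TMM (factors 0.9812 to 1.023), and the quasi-likelihood test, 79 minus 7 weeks, with Benjamini-Hochberg adjustment over the 15292 tested genes and a threshold of 0.05. The fit was also run on simulated counts with a common dispersion for all genes and no library set apart. That run does not bear on the p-values given here. Standard errors are the fitted log2 fold change over the root of F. Pooled over the tested genes, replicates of an age differed by more than counting noise (chi-square per degree of freedom 6.34 at 7 weeks and 18.1 at 79 weeks). Single abundant genes can weigh heavily in such a pooled value, as Ttr does with 97720 and 50 counts in the 79-week libraries. It is thus no measure of the spread of a typical gene.

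The members and the lists (9 of pathway genes and 14 of cell type markers, 229 of 230 entries found) were chosen with earlier results of these data known. Some genes of 2 pathway lists are not reported here, so that the counts and medians of those 2 lists cover their remaining genes only. Named are the called genes, 2 members by CPM of families with none called, and uncalled members whose ages did not overlap with a log2 fold change of at least 0.5. Other members are given for their place in the pathway. Pathway lists name up to 4 called genes. Ugcg, C1galt1, B3galt4, Ncam1, Chst10, Cmas, Glb1 and the markers were named outside this rule. The fit was repeated with scaling by RLE, upper quartile or library size, no filter, 1 CPM in 2 libraries, DESeq2 1.42.0, limma-voom (limma 3.58.1), robust dispersion, a replicate block and each library left out. A crossed block and DESeq2 with each library left out were added after seeing the data. Promoter windows and gene neighbours are from RefSeq (GRCm38.p6).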

Additional observations from a re-analysis of the deposited data

How the results depend on the processing

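Directions of the 10 called enzymes held in each alternative fit. Scaling by library size gave a member median of 0.0042, upper-quartile scaling -0.0362, no low-count filter -0.0357 and a filter of 1 CPM in 2 libraries -0.0589. With library size scaling the family medians were 0.0191 for GalNAc-transferases, 0.0014 for ST3GAL, -0.0776 for ST6GALNAC, 0.0341 for ST8SIA, 0.0408 for ST6GAL (0.0004 with upper-quartile scaling), -0.4664 for sialidases and -0.0405 for B3GAT. Signs turned there for the uncalled Galnt6 (0.0468, and 0.0075 with upper-quartile scaling), Galnt10 (0.0179), Galnt16 (0.0203), St3gal1 (0.0195), Neu1 (0.0042) and B4galt7 (0.0317), and for St3gal1 in limma-voom (0.001). Without the low-count filter 3051 genes were called, with 5 enzymes higher and 11 lower. The cause of these shifts was not tested.

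The replicate block called 1396 genes and the same 10 enzymes, and turned the sign of St3gal1 only (0.0224). Same-numbered libraries deviated with r = -0.106, and the crossed pairing, added after seeing the data, called 2014 genes with 4 enzymes higher and 10 lower.

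With a library left out, edgeR called 0 to 2425 genes, 0 to 5 enzymes higher and 0 to 10 lower, and the member median was -0.082 to -0.0306. Family medians ran from -0.0641 to -0.0023 for GalNAc-transferases, -0.2457 to -0.0365 for ST6GALNAC, -0.0445 to -0.0009 for ST8SIA, -0.1112 to 0.095 for ST6GAL, which changed sign, 0.0604 to 0.359 for GCNT, -0.1591 to -0.0356 for B3GAT and 0.1005 to 0.3411 for B4GALNT. Uncalled genes that changed sign ranged from -0.3745 to 0.2733 (Galnt6), -0.3687 to 0.2221 (Galnt10), -0.012 to 0.0839 (Galnt11), -0.4583 to 0.2047 (Galnt14), -0.4233 to 0.5299 (St3gal1), -0.0992 to 0.2138 (St3gal6), -0.0207 to 0.0277 (St6galnac6), -0.1339 to 0.0286 (Neu1), -0.0695 to 0.6043 (Neu3), -0.8977 to 0.423 (B4galnt3) and -0.1097 to 0.058 (B4galt7). DESeq2, added after seeing the data, called 235 genes without 7-week replicate 1 (1 enzyme higher, 2 lower), 421 without replicate 2 (1 and 3), 379 without 79-week replicate 1 (1 and 2) and 654 without replicate 2 (2 and 3). Enzymes with under 10 counts in a library, such as Neu2, are limited by depth.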

Other observations

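In a list of N-glycan branching and chain-extending enzymes 2 of 11 tested genes fell, 0 rose and 9 were not called by edgeR (median log2 fold change -0.12), beside 8.84% of all genes called. DESeq2 called 1 and limma-voom 2. Fut9, which makes the Lewis x group, fell from 286 and 279 CPM at 7 weeks to 207 and 209 CPM at 79 weeks (log2 fold change -0.44, SE 0.05, edgeR adjusted p = 0.00471). B3gnt5, the other, acts on glycolipids rather than on N-glycan branches, extending lactosylceramide into the lacto-series, and fell by 0.41 on the log2 scale (SE 0.08, edgeR adjusted p = 0.0288). Mgat3, which adds the bisecting N-acetylglucosamine, was at 250 and 232 CPM and then 197 and 225 CPM and was not called (adjusted p = 0.146).

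A list of siglecs, which bind sialic acid, with Cd24a and Cntn1 added, was read beside the 4.17% of all genes tested that were called higher. Of its 7 tested genes 5 were not called, 0 fell and 2 rose. They were the siglecs Cd33, at 1.31 and 1.01 CPM and then 2.95 and 3.15 CPM (2.64-fold, SE 0.30 on the log2 scale, edgeR adjusted p = 0.031), and Cd22, at 3 and 1 counts and then 23 counts in each old library. Cd22 passed the low-count filter only through the 79-week libraries, so its call is a description. Among the 5 genes of the list that passed in both ages 1 rose, beside 4.22% of all such genes. Microglial markers, 5 of 9 of which were called higher, summed to 101 and 109 CPM and then 169 and 214 CPM, and their part in these rises was not tested. Mag, the siglec of myelin, stood at 204 and 195 CPM and then 118 and 184 CPM (adjusted p = 0.188). Of 11 tested genes that start or extend chondroitin and heparan chains 0 were called (DESeq2 and limma-voom called 0, and 3 had an unadjusted edgeR p below 0.05).

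Among cell type markers not given above, 0 of 9 for inhibitory interneurons were called (DESeq2 called 1, and 2 had an unadjusted p below 0.05). For Bergmann glia and astrocytes 2 of 10 rose and 1 fell, and for meninges and fibroblasts 1 of 10 fell. For ependymal cells Foxj1 rose, and for unipolar brush cells 2 of 6 fell. Over all genes tested, 4.17% were called higher and 4.68% lower. Foxj1 was at 5.54 and 4.34 CPM at 7 weeks and 20.1 and 9.12 CPM at 79 weeks, highest in the library with high choroid plexus markers. The calls of Tekt1 (ependymal), Lmx1a and Samd3 (unipolar brush cells) as higher are descriptions, since these genes passed the filter at 79 weeks only, and Tekt1 was at 4.56 CPM in 79-week replicate 1 and 1.04 CPM in replicate 2. For choroid plexus 0 of 6 tested were called (DESeq2 called 1, and 6 had an unadjusted p below 0.05). For red blood cells 0 of 5 were called (DESeq2 called 0, and 2 had an unadjusted p below 0.05), and the single tested lymphocyte marker was not called.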
